A study of Mus musculus with 16 samples.

Results

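The libraries numbered 2 in their titles are taken here as the KO and WT pair of a single experiment, although the labels do not say so. The difference between their genotypes is described beside that of the libraries with other numbers. Those of replicate 2 were chosen by the replicate number in the titles and are 4 of 16 libraries. They give 2 of 8 pairs of a KO and a WT library of the same treatment and number. The KO groups were KOVeh and KOLi, with 4 libraries each, and the WT groups were WTVeh and WTLi, also with 4 each. KO mice were homozygous Shank3∆11(−/−), a deletion that spares isoforms other than Shank3a, Shank3b and Shank3c. Primary hippocampal cells of newborn pups were kept for 14 days in vitro (DIV), with 10 to 20 hippocampi pooled in a preparation. Li at 0.1 mmol/l or its water vehicle (Veh) was added at DIV 9 for 5 days, and bulk RNA was sequenced at harvest. The labels give each library its own DIV between 14 and 29 in place of a common harvest, and replicate 4 was sequenced in a later batch than replicates 1, 2 and 3.

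SHANK3 is a scaffold protein of the postsynaptic density, where it links glutamate receptors to the actin cytoskeleton. A hippocampal culture of this kind holds excitatory neurons and interneurons together with astrocytes, oligodendrocyte precursors, microglia, ciliated ependymal cells and cells of the meninges and vessel walls. RNA of the whole culture was read, so that fewer cells of a type and less RNA per cell cannot be told apart. Total counts lay between 17305519 and 22367889 in the 4 libraries of replicate 2 and between 16123067 and 35188300 in the other 12. Levels are given as CPM, read counts relative to a TMM-scaled library size, and differences as KO minus WT in log2 CPM, so that a positive value means more in KO. Veh and Li libraries of a culture were summed for the tests, which leaves 1 culture per genotype in replicate 2 and 3 in the others. Each p-value comes from edgeR's quasi-likelihood test on these sums and rests on the spread between the pairs of replicates 1, 3 and 4, which may in part be technical.

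Shank3 (ENSMUSG00000022623, chromosome 15, 89499623 to 89560261 of GRCm38.p6), the targeted gene, lay between the other KO and the other WT libraries in those labelled KO replicate 2. These held 162 CPM with Veh and 159 CPM with Li, against 169 and 188 CPM in WT replicate 2. The other 6 KO libraries held 82.0 to 97.9 CPM (median 87.4), and the other 6 WT libraries 204 to 267 CPM (median 228). Both libraries labelled KO replicate 2 thus lay above all other KO libraries, and both WT libraries of replicate 2 lay below all other WT libraries. The log2 difference was -0.13 ± 0.10 (SE) in replicate 2 and -1.37 ± 0.06 in the others (adjusted p = 0.00825, or 0.0834 without the replicate block and 0.139 without replicate 1). Replicate 2 exceeded the others by 1.24 ± 0.12 (adjusted p = 0.355 over all 14783 genes tested), a description only, since replicate 2 was singled out with its Shank3 level known. The level thus goes against the label, and every direction given for replicate 2 rests on that label. Counts are per gene and include the isoforms that the deletion leaves.

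**Figure D1:**
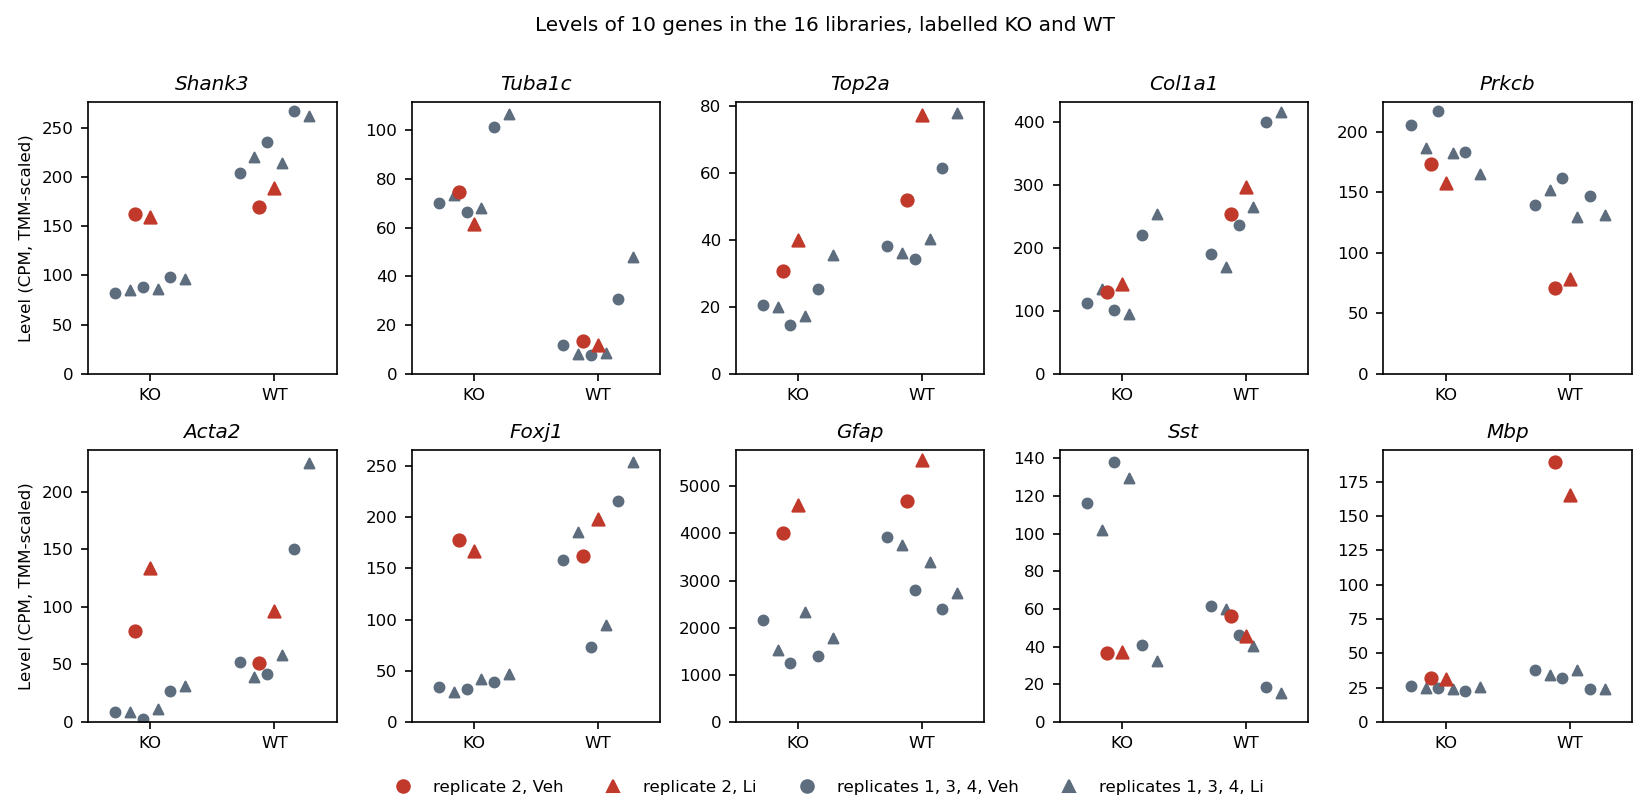
Levels of 10 genes in CPM (vertical axis, linear, starting at 0) in the 8 libraries labelled KO, left, and the 8 WT libraries, right. Red marks are replicate 2 and grey marks are replicates 1, 3 and 4, with circles for Veh and triangles for Li. Shank3, Acta2, Foxj1 and Gfap show red KO marks above all grey KO marks, Tuba1c, Top2a and Col1a1 show red marks apart by genotype, and Mbp shows the red WT marks far above all others.

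Other markers of the cultures also moved with genotype in replicate 2. Xist, the transcript of the inactive X chromosome, was at 562 and 556 CPM in the libraries labelled KO replicate 2, against 185 and 257 CPM in WT replicate 2. In the other replicates it was at 321 to 536 CPM (median 462) in KO and 309 to 522 CPM (median 422) in WT. The Y-linked gene Eif2s3y, a translation factor subunit, was at 12.4 and 13.3 CPM in the libraries labelled KO replicate 2, against 38.0 and 36.2 CPM in WT replicate 2. Ddx3y, Kdm5d and Uty were lower there too, with log2 differences of -0.76, -0.76 and -0.95 in replicate 2 and 0.08, -0.02 and -0.02 in the others. All 5 tested sex-linked genes thus differed in replicate 2, with more X-inactive and less Y-linked RNA in the libraries labelled KO. In the others, single pairs ranged from -0.49 to 0.70 for Ddx3y, -0.74 to 0.80 for Kdm5d and -0.83 to 0.58 for Uty. The median over the 5 genes was -0.75 and -0.81 in the Veh and Li pair of replicate 2. It was -0.48 and -0.73 in replicate 1, 0.56 and 0.59 in replicate 3, and 0.12 and -0.10 in replicate 4. The means near 0 in the others thus average shifts of both signs. The part of the sex-linked differences in the other results was not tested.

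Large genotype differences were fewer in replicate 2, and its pairs correlated less with the other pairs than those did between different replicate numbers. Genes with a difference above 1 on the log2 scale numbered 586 in the Veh pair and 489 in the Li pair of replicate 2 (3.96% and 3.31% of 14783 genes), against 856 to 1775 in the other 6 pairs. The median absolute difference over all genes was 0.23 and 0.18 in replicate 2, against 0.20 to 0.29 in the others, so that the Veh pair lay within their range and the Li pair just below it. Across genes, the differences of the 2 pairs of replicate 2 correlated by 0.528 with each other. They correlated by 0.0113 to 0.343 (median 0.180) with those of the other pairs, which correlated by 0.390 to 0.667 (median 0.505) between different replicate numbers. By number, the pairs of replicate 2 correlated by 0.0402 to 0.279 with replicate 1, 0.232 to 0.343 with replicate 3 and 0.0113 to 0.135 with replicate 4. These values are across genes, which are not independent, and the Veh and Li pairs of a number share their cultures.

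In replicates 1, 3 and 4, 1385 genes were called lower in KO (9.37% of the genes tested) and 689 higher (4.66%), at an adjusted p under 0.05 and a fold above 1.2. With library sizes not scaled by TMM these counts were 1540 and 395. Without the replicate block 0 genes were called (3778 at an unadjusted p under 0.05), 0 were called without replicate 1 (2844 at an unadjusted p under 0.05), and 25 were called without replicate 4. Without KOVeh replicate 3 alone, 590 genes were called. In replicate 2, 0 genes were called (0%), with 1473 at an unadjusted p under 0.05 (9.96%), of which 467 were lower (3.16% of the genes tested) and 1006 higher (6.81%). DESeq2 on the same sums called 13 lower (0.0879%) and 150 higher (1.01%) in replicate 2, and limma-voom, treating cultures as random, called 32 (0.216%) and 239 (1.62%). For the difference between replicate 2 and the others, edgeR called 0 genes (0%), with 1796 at an unadjusted p under 0.05, of which 657 were below the others (4.44%) and 1139 above (7.70%). DESeq2 called 15 below and 89 above (0.101% and 0.602%), and limma-voom of the same kind 138 and 538 (0.934% and 3.64%).

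Of the 2074 genes called in replicates 1, 3 and 4, 1580 had the same sign of the mean difference in replicate 2 (76.2%, against 59.4% of all genes tested). A difference is termed kept where both pairs of replicate 2 had the sign of the others and their mean was at least 0.5 times the mean of the other 6 pairs. It is termed reversed where the mean had the opposite sign, and reduced otherwise. By this measure, 324 of the 1385 lower genes were kept, 758 reduced and 303 reversed. Of the 689 higher genes, 327 were kept, 171 reduced and 191 reversed. Over all tested genes, 34.4% were kept and 40.6% reversed. The median difference of the genes called lower was -0.15 and -0.26 in the Veh and Li pair of replicate 2, against -0.99 to -0.61 in the other 6 pairs. That of the genes called higher was 0.15 and 0.21, against 0.36 to 0.49.

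In most of the called genes the libraries labelled KO replicate 2 stood apart from the other KO libraries. In 1083 of the 1385 genes called lower, both stood above all 6 other KO libraries, as they did in 24.2% of all genes tested. In 474 of the 689 genes called higher, both stood below all 6, as in 19.7% of all genes. WT replicate 2 stood below all other WT libraries, which would also lessen the difference, in 4 of the genes called lower (10.1% of all genes), and above them in 20 of those called higher (7.98% of all genes). The calls were made on the other KO libraries, so that a shift of replicate 2 away from them is in part given by the choice of genes. On the median over the genes called lower, the libraries labelled KO replicate 2 were 0.78 above the other KO libraries and 0.00 above the other WT libraries in log2 CPM.

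**Figure D2:**
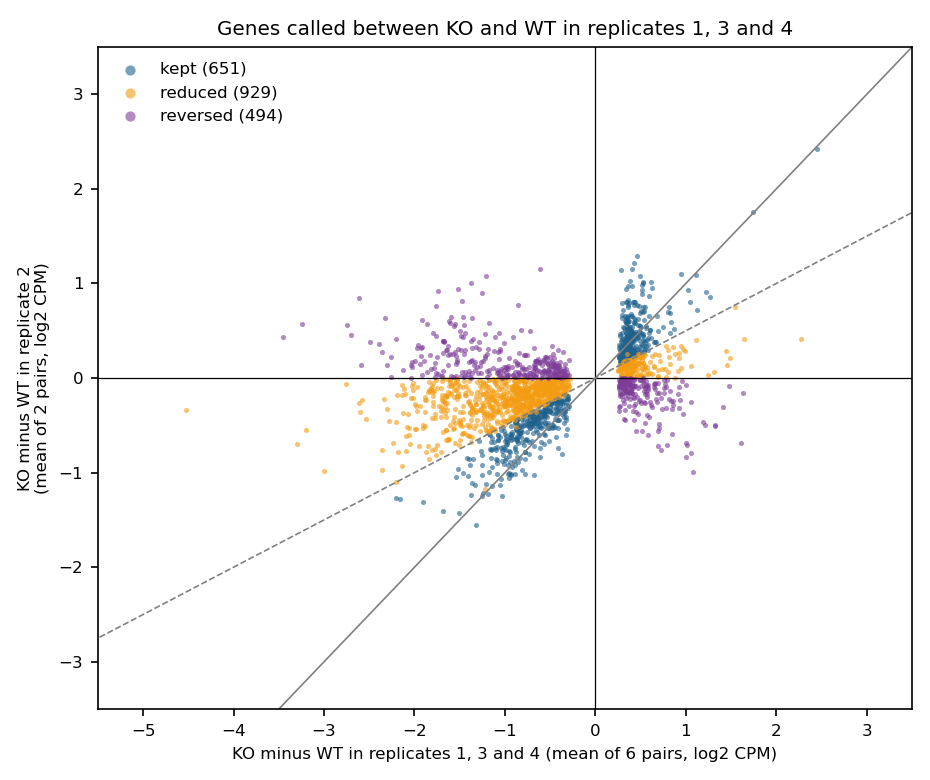
Mean KO minus WT difference in log2 CPM of the 2074 genes called in replicates 1, 3 and 4, in replicate 2 (vertical axis, mean of 2 pairs) against the others (horizontal axis, mean of 6 pairs). The solid line marks equal differences and the dashed line 0.5 times the difference. Kept genes (651, blue) lie along or beyond the dashed line, reduced genes (929, orange) between it and 0, and reversed genes (494, purple) on the other side of 0.

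Genes of cell division kept the difference in 49 of 55 called members, against 23.4% of all genes called lower. All 73 genes of the mitosis list, which holds kinases, cohesin and spindle proteins and kinesins of dividing cells, had a mean difference below 0 in replicate 2 and also in the others. In the others 55 were called lower (9.37% of all genes), and those not kept were reduced (6), with 0 reversed. The median was -0.61 and -0.82 in the pairs of replicate 2, against -1.07 to -0.58 in the other 6, and 43 of 73 genes were lower in replicate 2 at an unadjusted p under 0.05 (3.16% of all genes). Top2a, the topoisomerase that untangles sister chromosomes, was at 30.8 and 40.1 CPM in the libraries labelled KO replicate 2 and at 52.1 and 77.3 CPM in WT replicate 2. The other KO libraries held 14.5 to 35.6 CPM (median 20.2) and the other WT libraries 34.3 to 78.0 CPM (median 39.3). The genotypes thus did not overlap within replicate 2, and its libraries lay within the range of the others of their label, apart from KO with Li, which stood above it. Its log2 difference was -0.85 ± 0.16 in replicate 2 (adjusted p = 0.394) and -1.08 ± 0.09 in the others (adjusted p = 0.0291). For Ckap2, a spindle protein, the differences were -1.02 ± 0.15 and -1.23 ± 0.09, and for Plk1, a mitotic kinase, -1.001 and -0.97. Kif4, Kif22, Kif23 and Kif18b, kinesins of dividing cells, had differences of -0.96 to -0.62 in replicate 2, against -1.15 to -0.50 in the others, and Kif20a had -0.58 against -0.82.

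Promoters of 4 of these genes are shown because a pair of short elements recurs in them. The CCAAT box is bound by the factor NF-Y, and the cell cycle genes homology region (CHR) by the complexes that hold mitotic genes silent in resting cells. The 250 bases before the RefSeq start are given 5′ to 3′ (GRCm38.p6), with CCAAT and TTTGAA in capitals on either strand (ATTGG and TTCAAA are their reverse complements). The 4 genes are those of the list with the smallest p in replicates 1, 3 and 4. Ckap2 lies at chr8:22185820-22186069, Ckap2l at chr2:129297213-129297462, Top2a at chr11:99024190-99024439 and Mki67 at chr7:135716380-135716629, all on the minus strand.
Ckap2: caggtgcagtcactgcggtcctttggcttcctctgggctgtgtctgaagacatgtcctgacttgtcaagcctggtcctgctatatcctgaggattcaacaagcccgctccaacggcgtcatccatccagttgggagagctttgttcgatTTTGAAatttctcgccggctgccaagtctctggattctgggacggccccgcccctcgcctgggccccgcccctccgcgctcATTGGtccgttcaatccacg
Ckap2l: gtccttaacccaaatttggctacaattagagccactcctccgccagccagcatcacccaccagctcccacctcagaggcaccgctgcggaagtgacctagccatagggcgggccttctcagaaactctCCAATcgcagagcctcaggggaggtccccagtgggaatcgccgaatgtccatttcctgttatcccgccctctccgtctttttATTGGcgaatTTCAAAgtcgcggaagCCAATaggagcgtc
Top2a: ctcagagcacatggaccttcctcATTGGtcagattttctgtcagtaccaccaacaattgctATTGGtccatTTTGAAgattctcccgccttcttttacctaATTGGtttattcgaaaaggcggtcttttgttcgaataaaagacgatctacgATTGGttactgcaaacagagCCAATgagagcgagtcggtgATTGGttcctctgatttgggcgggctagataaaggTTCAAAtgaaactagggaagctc
Mki67: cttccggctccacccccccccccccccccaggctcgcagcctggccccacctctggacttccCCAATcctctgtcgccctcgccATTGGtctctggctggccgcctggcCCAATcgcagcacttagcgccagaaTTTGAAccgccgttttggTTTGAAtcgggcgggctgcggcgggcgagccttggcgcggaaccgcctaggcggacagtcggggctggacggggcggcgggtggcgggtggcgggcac

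CCAAT stood in the promoters of 40 of the 61 mitosis genes matched in the table (65.6%, against 37.5% of 27025 genes), and TTTGAA in 25 (41.0%, against 18.3%). Both stood in 19 (31.1%, against 6.45%). The letters of the pair can share a base, which happened in 22 promoters of the whole table. A match is a description of these letters and says nothing of binding in the cultures.

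DNA replication genes behaved likewise at a smaller size. Their median was -0.32 and -0.39 in the pairs of replicate 2, against -0.51 to -0.36 in the others, and 14 of the 16 genes called lower were kept. Mcm4, a subunit of the replicative helicase, was at 18.96 and 21.8 CPM in the libraries labelled KO replicate 2 and at 24.4 and 31.2 CPM in WT replicate 2. In the other replicates it was at 12.9 to 17.3 CPM (median 14.6) in KO and 20.9 to 31.6 CPM (median 24.04) in WT. The log2 difference was -0.43 ± 0.13 in replicate 2 and -0.74 ± 0.08 in the others (adjusted p = 0.0291). Promoters of this list held CCAAT in 25 of 40 matched genes (62.5%) and TTTGAA in 5 (12.5%).

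Of all genes called higher in the others, 47.5% were kept, the share beside which the counts of the channel and synapse lists stand. Of 50 voltage-gated channel genes, 22 were called higher in the others (4.66% of all genes), with 15 kept, 3 reduced and 4 reversed. The list median was 0.43 and 0.32 in replicate 2, against 0.25 to 0.39, and 23 of 50 genes were higher in replicate 2 at an unadjusted p under 0.05 (6.81% of all genes). Kcnc4, a fast potassium channel, was at 63.1 and 56.3 CPM in the libraries labelled KO replicate 2 and at 40.9 and 37.0 CPM in WT replicate 2. In the other replicates it was at 64.8 to 77.1 CPM (median 72.0) in KO and 46.2 to 59.1 CPM (median 52.8) in WT. The genotypes did not overlap in either set, and all 4 libraries of replicate 2 stood below the other libraries of the same label. Hcn2, a pacemaker channel, and Cacna2d3, a calcium channel subunit, did not keep theirs, with -0.00 and 0.06 in replicate 2 against 0.41 in the others for each gene.

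Postsynaptic scaffolds and glutamate receptors had medians of 0.35 and 0.28 in replicate 2, against 0.22 to 0.49, and 10 of the 19 genes called higher were kept. The 4 members with the smallest p in the others, the kainate receptor subunits Grik3 and Grik2 and the AMPA receptor partners Cacng2 and Cacng3, were all reduced, with 0.28, 0.15, 0.24 and 0.09 in replicate 2 against 0.93, 0.45, 0.49 and 0.75. GABA genes had medians of 0.34 and 0.35, against 0.29 to 0.39. Within this list the receptor subunit Gabbr2 kept the difference, with 0.47 in replicate 2 against 0.39. Gad1, which makes GABA, was at 0.15 against 0.48, and Slc32a1, which loads it into vesicles, at -0.28 against 0.87. Of the 11 GABA genes called higher 6 were kept. Presynaptic release genes had medians of 0.17 and 0.18 in replicate 2, against 0.18 to 0.43, with 9 of 16 called genes kept, 5 reduced and 2 reversed. Both libraries labelled KO replicate 2 stood below all other KO libraries in 30 of these 45 genes (19.7% of all genes). Sv2b, a synaptic vesicle protein, had a larger difference in replicate 2 (1.005 ± 0.10) than in the others (0.62 ± 0.06), and Cplx1, a regulator of vesicle fusion, had -0.08 against 0.55.

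Several genes had a larger difference in replicate 2 than in the others. Prkcb, a protein kinase C, was at 173 and 157 CPM in the libraries labelled KO replicate 2 and at 70.4 and 78.3 CPM in WT replicate 2. Other KO libraries held 165 to 217 CPM (median 185) and other WT libraries 130 to 162 CPM (median 143). Its log2 difference was 1.18 ± 0.11 in replicate 2 (adjusted p = 0.385) and 0.41 ± 0.06 in the others. Dgkh, a diacylglycerol kinase, Gabrb2, a GABA-A receptor subunit, and Ddn, a dendritic protein, had 1.16, 1.201 and 1.09 in replicate 2 against 0.29, 0.43 and 0.51. For Prkcb both WT libraries of replicate 2 stood below all other WT libraries, and for Dgkh this was so while both libraries labelled KO replicate 2, at 61.6 and 64.5 CPM, also stood above the 44.1 to 53.4 CPM of the other KO libraries. These genes are among the 10 with the largest difference in replicate 2 out of those called higher in the others with the same sign in all 8 pairs, and were chosen by that difference.

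The same rule for genes lower in KO gave a mixed group. Neat1, a nuclear long noncoding RNA, was at 114 and 110 CPM in the libraries labelled KO replicate 2 and at 249 and 282 CPM in WT replicate 2, against 25.6 to 54.4 CPM (median 43.1) in the other KO libraries and 50.3 to 154 CPM (median 130) in the other WT libraries. All 4 libraries of replicate 2 were thus high for their label, and the difference between them was kept. Cnmd, a cartilage matrix protein, had -1.42 in replicate 2 and -1.40 in the others, and Pbk and Knstrn, a mitotic kinase and a kinetochore protein, had -1.14 and -1.06 against -1.16 and -0.93. Cspg4 and Mcam, surface proteins of precursors and vessel wall cells, had -1.25 and -1.04 against -1.31 and -1.51.

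**Figure D3:**
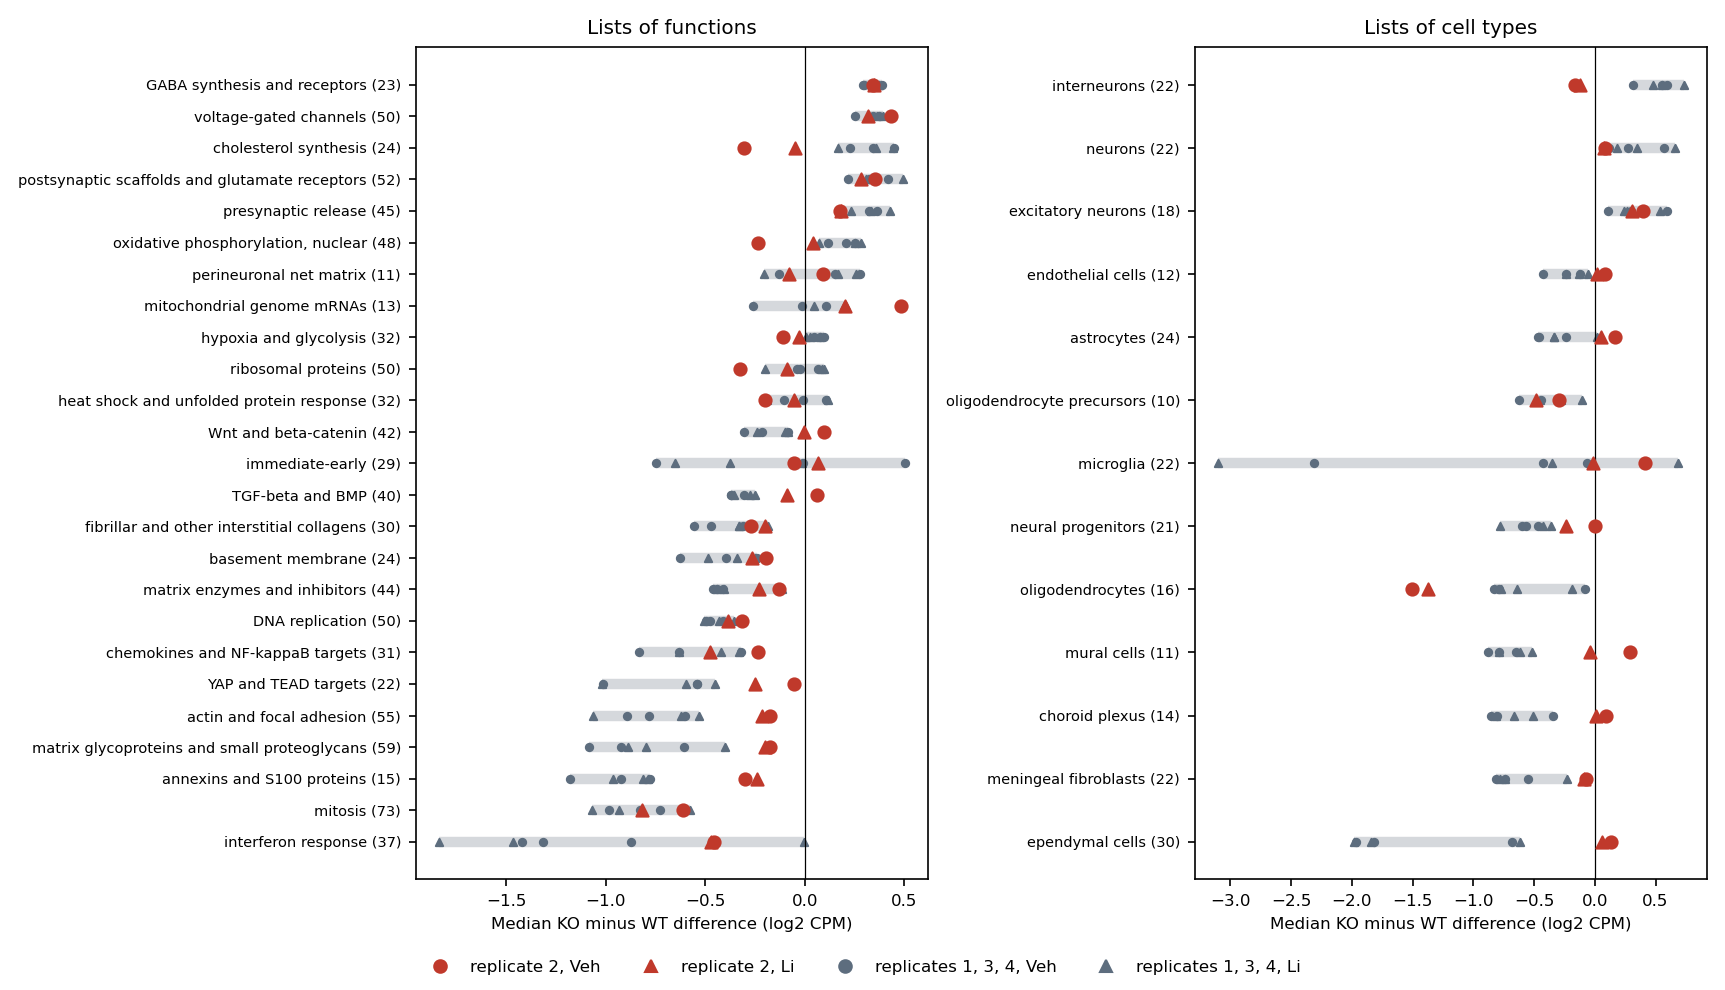
Median KO minus WT difference in log2 CPM (horizontal axis) of each gene list, with functions left and cell types right and the number of tested genes in brackets. Red marks are the Veh (circle) and Li (triangle) pair of replicate 2, grey marks the other 6 pairs, and the grey bar spans these 6. Mitosis and voltage-gated channels have red marks within or beside the bar, while those of ependymal cells, interneurons and cholesterol synthesis lie on the other side of 0.

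Matrix genes are given by class. Fibrillar and other interstitial collagens had medians of -0.27 and -0.20 in replicate 2, against -0.56 to -0.19. Of their 12 called genes 7 were kept, against 31.4% of all called genes. Col1a1, a chain of type I collagen, was at 129 and 143 CPM in the libraries labelled KO replicate 2 and at 254 and 297 CPM in WT replicate 2. In the other replicates it was at 94.4 to 254 CPM (median 124) in KO and 169 to 415 CPM (median 251) in WT. Its log2 difference was -0.999 ± 0.28 in replicate 2 (adjusted p = 0.443) and -0.88 ± 0.16 in the others (adjusted p = 0.0388). Col2a1, the collagen of cartilage, had -1.41 and -1.88. Its level was low, at 0.584 and 0.749 CPM in the libraries labelled KO replicate 2 and 1.72 and 1.83 CPM in WT replicate 2. Col8a2, a short-chain collagen, went the other way, with 0.47 in replicate 2 against -2.63.

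Of the 28 matrix glycoproteins and small proteoglycans called in the others, 5 were kept, 17 reduced and 6 reversed. Of the 28, 26 were called lower and 2 higher. Among all genes called lower, 23.4% were kept, 54.7% reduced and 21.9% reversed, so that these counts were near those shares. The list of matrix glycoproteins had medians of -0.17 and -0.20 in replicate 2, against -1.08 to -0.40. In 27 of its 59 genes both pairs of replicate 2 lay above all 6 other pairs (17.4% of all genes). Thbs1, thrombospondin 1, was at 116 and 165 CPM in the libraries labelled KO replicate 2 and at 108 and 216 CPM in WT replicate 2. Elsewhere it was at 20.9 to 118 CPM (median 40.0) in KO and 103 to 433 CPM (median 130) in WT. In replicate 2 the genotypes overlapped, and the log2 difference was -0.18 ± 0.19, against -1.79 ± 0.11 in the others (adjusted p = 0.0158). Ltbp2, a matrix glycoprotein, was at 27.6 and 57.4 CPM in the libraries labelled KO replicate 2 and at 20.98 and 41.1 CPM in WT replicate 2. The other KO libraries held 0.686 to 13.4 CPM (median 2.80) and the other WT libraries 13.9 to 188 CPM (median 22.97). DESeq2 called 10 of the 59 genes as above the others in replicate 2 (0.602% of all genes) and limma-voom 16 (3.64%).

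Of the 9 basement membrane genes called lower, 3 were kept, 4 reduced and 2 reversed. Of all genes called lower, 23.4% were kept, 54.7% reduced and 21.9% reversed. Lama5, a laminin chain, was at 31.7 and 49.8 CPM in the libraries labelled KO replicate 2 and at 43.1 and 77.2 CPM in WT replicate 2, with a difference of -0.55 ± 0.11 in replicate 2 against -1.53 ± 0.06 in the others. Hspg2, the perlecan core protein, had -0.93 and -0.95. Of 13 matrix enzymes and inhibitors called lower, 3 were kept and 9 reduced, so that the share kept was near that of all genes called lower. The perineuronal net list had 11 tested genes and 2 called ones, Cspg4 and Hapln4, a link protein, which were both kept.

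Actin and adhesion genes had mostly smaller differences in replicate 2, as had all genes called lower, of which 23.4% were kept, 54.7% reduced and 21.9% reversed. All 55 had a mean below 0 in the others, where 39 were called lower (9.37% of all genes). Of these 39, 7 were kept, 27 reduced and 5 reversed. The median was -0.17 and -0.22 in replicate 2, against -1.06 to -0.53, and in 32 of 55 genes both pairs of replicate 2 lay above the other 6 (17.4% of all genes). Acta2, the actin of smooth muscle, was at 79.1 and 134 CPM in the libraries labelled KO replicate 2 and at 50.7 and 96.3 CPM in WT replicate 2. Other KO libraries held 2.45 to 31.0 CPM (median 10.05) and other WT libraries 39.4 to 225 CPM (median 55.1). The libraries labelled KO replicate 2 thus stood above WT replicate 2 in both treatments, while in the others KO lay below WT without overlap. The log2 difference was 0.54 ± 0.15 in replicate 2 and -2.61 ± 0.09 in the others (adjusted p = 0.00632), and replicate 2 exceeded the others by 3.16 ± 0.18 (adjusted p = 0.0884). Cnn1, a smooth muscle calponin, had 0.56 against -3.23, and Palld, an actin crosslinker, had -0.53 against -2.04. Myh9, Ezr and Rhoa, a nonmuscle myosin, a membrane linker and a small GTPase, had -0.42, -0.25 and -0.11 against -0.90, -1.004 and -0.31.

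The targets of YAP and TEAD, regulators of transcription that respond to tension of the cytoskeleton, had medians of -0.05 and -0.25 in replicate 2. In the others the medians were -1.02 to -0.45. Of the 9 called targets, 0 were kept, 8 reduced and 1 reversed. Among all genes called lower, 23.4% were kept, 54.7% reduced and 21.9% reversed. The mean difference in replicate 2 was still below 0 in 18 of the 22 tested targets. Ctgf was at 99.6 and 139 CPM in the libraries labelled KO replicate 2 and at 174 and 216 CPM in WT replicate 2, against 15.8 to 96.2 CPM (median 42.5) in the other KO and 84.4 to 448 CPM (median 136) in the other WT libraries. Cyr61, its relative, had -0.79 ± 0.10 in replicate 2 against -1.59 ± 0.06. Annexins and S100 proteins, which bind calcium and membranes, were reduced in 8 of 10 called genes, against 54.7% of all genes called lower. Anxa2 had -0.51 ± 0.10 in replicate 2 against -1.12 ± 0.06, and Anxa5 had -0.47 against -1.16. Anxa6 was kept, with -0.24 against -0.33.

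Genes of TGF-beta and BMP signalling had medians of 0.06 and -0.09 in replicate 2, against -0.37 to -0.25. Of their 11 called genes, 0 were kept, 7 reduced and 4 reversed. Among all genes called lower, 23.4% were kept, 54.7% reduced and 21.9% reversed. Bmp6, a secreted ligand, was at 141 and 148 CPM in the libraries labelled KO replicate 2 and at 146 and 191 CPM in WT replicate 2, against 23.6 to 50.9 CPM (median 40.4) in the other KO and 69.2 to 341 CPM (median 163) in the other WT libraries. Bmpr1a, a receptor, had 0.29 against -0.34, and Id1, a target, -0.32 against -1.04. Wnt genes had medians of 0.10 and -0.00, against -0.30 to -0.08. Of their 11 called genes 1 was kept, against 31.4% of all called genes.

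Interferon response genes kept their sign. All 37 had a mean below 0 in replicate 2 and in the others, with medians of -0.45 and -0.47 against -1.84 to -0.00. Of the 10 called genes 8 were kept, against 23.4% of all genes called lower. Over all 37 genes, 14 were kept and 23 reduced, while 34.4% of all tested genes were kept. Ifitm3, an antiviral membrane protein, was at 36.8 and 38.5 CPM in the libraries labelled KO replicate 2 and at 54.5 and 61.1 CPM in WT replicate 2, with a difference of -0.60 ± 0.12 against -0.92 ± 0.07 in the others. In 31 of these 37 genes both libraries labelled KO replicate 2 stood above all other KO libraries (24.2% of all genes). Of the 6 called chemokine and NF-kappaB genes, 2 were kept and 4 reduced.

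Metabolic genes that were higher in KO elsewhere were not so in replicate 2. Cholesterol synthesis had medians of -0.30 and -0.05 in replicate 2, against 0.17 to 0.45, and in 21 of its 24 genes both pairs of replicate 2 lay below the other 6 (12.8% of all genes). Of the 8 called genes, 0 were kept, 3 reduced and 5 reversed. Among all genes called higher, 47.5% were kept, 24.8% reduced and 27.7% reversed. Nsdhl, a sterol dehydrogenase, was at 60.1 and 61.9 CPM in the libraries labelled KO replicate 2 and at 80.3 and 63.6 CPM in WT replicate 2, against 97.7 to 114 CPM (median 104) in the other KO and 62.0 to 82.7 CPM (median 78.7) in the other WT libraries. Cyp51 and Msmo1, enzymes of the same route, had -0.10 and -0.08 against 0.42 and 0.40. Nuclear genes of oxidative phosphorylation had medians of -0.24 and 0.04, against 0.07 to 0.28, and the 2 pairs of replicate 2 differed in sign. Of their 11 called genes, 0 were kept, 1 was reduced and 10 were reversed. The mean level of this list was 7.07 log2 CPM in WTVeh replicate 2, above the 6.71 to 6.88 of the other 6 WT libraries and above the 6.73 of WTLi replicate 2. Ribosomal protein genes differed in the same 2 pairs by medians of -0.33 and -0.09, against -0.20 to 0.09.

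Among the lists of cell types, ependymal cells, the ciliated lining of the ventricles, did not have the difference in replicate 2. In the others, 16 of 30 genes were called lower (9.37% of all genes) and all 30 had a mean below 0. In replicate 2, the medians were 0.13 and 0.06, against -1.98 to -0.62, and 0 of the 16 were kept, 7 reduced and 9 reversed. Among all genes called lower, 23.4% were kept, 54.7% reduced and 21.9% reversed. In 26 of 30 genes both pairs of replicate 2 lay above the other 6 (17.4% of all genes). Limma-voom, treating cultures as random, called 19 of the 30 as above the others in replicate 2 (3.64% of all genes), and DESeq2 3 (0.602%). Foxj1, the master regulator of motile cilia, was at 178 and 167 CPM in the libraries labelled KO replicate 2 and at 162 and 198 CPM in WT replicate 2. Other KO libraries held 29.6 to 46.4 CPM (median 36.6) and other WT libraries 72.7 to 254 CPM (median 172). Its log2 difference was -0.03 ± 0.48 in replicate 2 and -1.99 ± 0.29 in the others (adjusted p = 0.0323). Enkur, an axoneme protein, was at 25.2 and 31.1 CPM in the libraries labelled KO replicate 2 and at 31.1 and 32.8 CPM in WT replicate 2, against 5.53 to 8.34 CPM in the other KO and 14.2 to 29.9 CPM in the other WT libraries. Dnah11, a dynein arm, and Lrrc23, a radial spoke protein, had -0.03 and -0.16 against -1.70 and -1.67. In all 30 genes, both libraries labelled KO replicate 2 stood above all other KO libraries (24.2% of all genes).

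Astrocyte genes had medians of 0.17 and 0.06 in replicate 2, against -0.47 to 0.01. Of their 6 called genes 0 were kept, against 23.4% of all genes called lower. Gfap, the astrocyte filament, was at 4006 and 4611 CPM in the libraries labelled KO replicate 2 and at 4685 and 5546 CPM in WT replicate 2, against 1243 to 2328 CPM (median 1659) in the other KO and 2395 to 3917 CPM (median 3095) in the other WT libraries. All 4 libraries of replicate 2 were thus above every other library of either label. Gja1, a gap junction protein, and Slc39a12, a zinc transporter, had 0.08 and 0.11 in replicate 2 against -0.51 and -0.95, and Apoe, the lipid carrier that astrocytes secrete, had -0.23 against -0.82. Neural progenitor genes had medians of 0.00 and -0.24, against -0.78 to -0.36. All 11 called genes were reduced, against 54.7% of all genes called lower. Nes, an intermediate filament of progenitors, had -0.63 ± 0.12 against -1.60 ± 0.07, and Vim, a filament of glia and fibroblasts, -0.69 against -1.68.

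Mural cell genes had medians of 0.29 and -0.04 in replicate 2, against -0.88 to -0.52. Of their 5 called genes 1 was kept, near the 23.4% of all genes called lower. Acta2 and Cnn1 belong to this list too. Meningeal fibroblast genes had medians of -0.07 and -0.09, against -0.81 to -0.23. Ptgds, a prostaglandin synthase of the meninges, was at 116 and 94.4 CPM in the libraries labelled KO replicate 2 and at 226 and 176 CPM in WT replicate 2, against 14.96 to 89.9 CPM (median 25.3) in the other KO and 67.6 to 293 CPM (median 120) in the other WT libraries. Its difference was -0.92 ± 0.11 in replicate 2 and -2.12 ± 0.07 in the others. Choroid plexus genes had medians of 0.09 and 0.01, against -0.86 to -0.34, and endothelial genes 0.09 and 0.02, against -0.42 to -0.06. With 1 library left out, the median in replicate 2 ranged from -0.027 to 0.20 for choroid plexus and from -0.031 to 0.10 for endothelial cells, with both below 0 without WTVeh replicate 2, and choroid plexus also without KOVeh replicate 2. Folr1, a folate receptor of the choroid plexus, was at 10.2 and 11.3 CPM in the libraries labelled KO replicate 2 and at 9.42 and 12.2 CPM in WT replicate 2, against 0.930 to 6.93 CPM (median 2.52) in the other KO and 3.83 to 27.7 CPM (median 12.2) in the other WT libraries. The endothelial markers lay at low levels, with a mean of 1.28 to 1.96 log2 CPM over the 16 libraries.

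**Figure D4:**
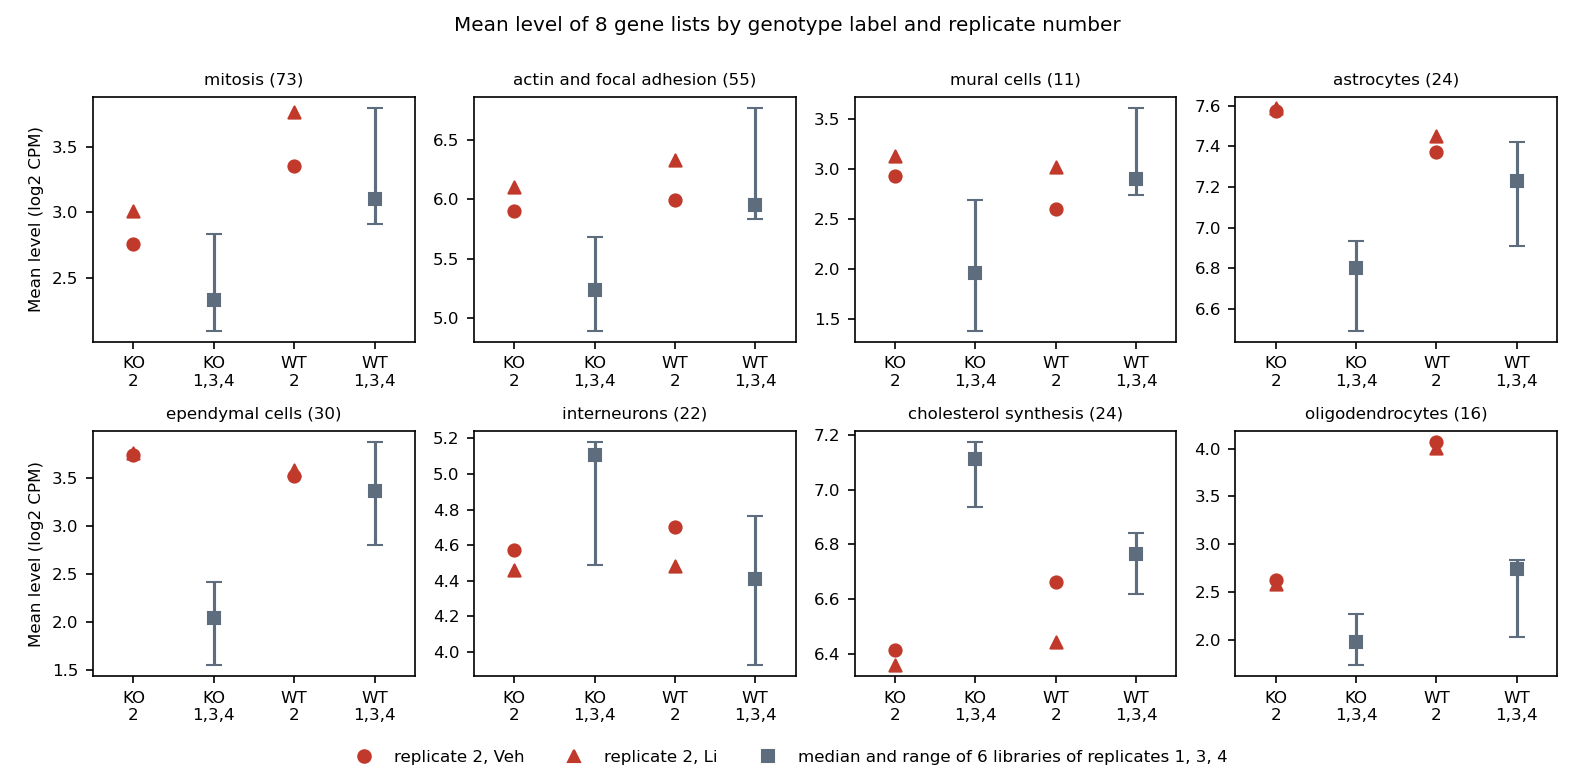
Mean level in log2 CPM of 8 gene lists (number of tested genes in brackets), with the libraries labelled KO replicate 2, the other KO libraries, WT replicate 2 and the other WT libraries from left to right. Red circles and triangles are the Veh and Li library of replicate 2, and grey squares with bars the median and range of 6 libraries. In ependymal cells the red KO marks (3.73 and 3.75) lie above the range of the other KO libraries (1.55 to 2.41), and in oligodendrocytes the red WT marks (4.06 and 4.01) lie above that of the other WT libraries (2.03 to 2.83).

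Interneuron genes were higher in KO in the others and not in replicate 2. The medians were -0.17 and -0.12 in replicate 2, against 0.31 to 0.73, and of 11 called genes 1 was kept, 4 were reduced and 6 reversed. Among all genes called higher, 47.5% were kept, 24.8% reduced and 27.7% reversed. Sst, the peptide somatostatin of a class of interneurons, was at 36.4 and 37.1 CPM in the libraries labelled KO replicate 2 and at 56.3 and 45.7 CPM in WT replicate 2. Other KO libraries held 32.4 to 138 CPM (median 109) and other WT libraries 15.6 to 61.4 CPM (median 43.2). Its log2 difference was -0.47 ± 0.26 in replicate 2 and 1.202 ± 0.15 in the others (adjusted p = 0.0303). Dlx1, a transcription factor of interneurons, had -0.18 against 0.73. Erbb4, a neuregulin receptor, had 0.16 against 0.84, and Adarb2 was kept with 0.50 against 0.85.

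General neuronal genes had medians of 0.08 and 0.07 in replicate 2, against 0.12 to 0.66. Of their 7 called genes 2 were kept, against 47.5% of all genes called higher. Snap25, of the vesicle fusion machinery, had 0.40 in replicate 2 and 0.40 in the others, while Nefh, a neurofilament, had -0.06 against 0.77 and Elavl4, an RNA-binding protein, 0.14 against 0.65. Excitatory neuron genes, with 2 called members, had medians of 0.40 and 0.31 against 0.11 to 0.59. Bcl11b, a transcription factor, was at 82.5 and 79.6 CPM in the libraries labelled KO replicate 2 and at 42.8 and 53.3 CPM in WT replicate 2, against 55.2 to 72.9 CPM in the other KO and 38.7 to 53.5 CPM in the other WT libraries. Slc17a7, the vesicular glutamate transporter, had 0.04 against 0.40.

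The oligodendrocyte list had lower medians in replicate 2 than in the others. The medians were -1.50 and -1.37, against -0.83 to -0.08, and 5 of 16 genes were lower in replicate 2 at an unadjusted p under 0.05 (3.16% of all genes). Mbp, myelin basic protein, was at 32.3 and 31.4 CPM in the libraries labelled KO replicate 2 and at 190 and 165 CPM in WT replicate 2. The other KO libraries held 22.7 to 26.4 CPM (median 25.01) and the other WT libraries 24.2 to 38.1 CPM (median 33.1). All 4 libraries of replicate 2 thus stood above all others of their label, WT replicate 2 by far the more, and the log2 difference was -2.47 ± 0.20 in replicate 2 (adjusted p = 0.385), against -0.32 ± 0.11 in the others. Cnp, an enzyme of myelin, had -0.21 against -0.97, so that the list did not move as one. With genes under 50 counts in a genotype mean left out, its median in replicate 2 was -0.44, within the range that the whole list spanned in the other pairs. Oligodendrocyte precursor genes had medians of -0.29 and -0.48, against -0.62 to -0.10, over 10 genes with 1 call.

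Microglia genes varied widely between pairs, with medians of 0.41 and -0.02 in replicate 2 and -3.10 to 0.69 in the others. Their mean level was 3.11 and 3.08 log2 CPM in the libraries labelled KO replicate 2 and 2.64 and 3.05 in WT replicate 2. In the other replicates it was -0.71 to 1.68 in KO and -0.31 to 3.78 in WT. Cx3cr1, a microglial chemokine receptor, was at 18.2 and 20.2 CPM in the libraries labelled KO replicate 2 and at 7.71 and 21.04 CPM in WT replicate 2, against 0.0711 to 6.04 CPM in the other KO and 0.459 to 32.8 CPM in the other WT libraries. The part of these cells in the other results was not tested. Of the red blood cell list, 0 of 7 genes passed the filter on low counts.

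The genes with the smallest p for the difference between replicate 2 and the others were in part members of the lists above. Beside Acta2, Cnn1, Col8a2, Ltbp2 and Shank3, those above the others were Wisp2, a secreted matrix protein, Gpr37l1, a receptor of astrocytes, Dab2, an endocytic adaptor, Ptgds and Shc3, a neuronal adaptor. Wisp2 was at 47.7 and 72.5 CPM in the libraries labelled KO replicate 2 and at 59.7 and 92.6 CPM in WT replicate 2, against 0.294 to 12.8 CPM (median 2.47) in the other KO and 20.99 to 303 CPM (median 45.5) in the other WT libraries. Replicate 2 exceeded the others by 4.01 ± 0.19 (adjusted p = 0.0752). Shc3 was at 95.3 and 97.2 CPM in the libraries labelled KO replicate 2 and at 28.8 and 53.5 CPM in WT replicate 2, against 84.3 to 112 CPM in the other KO and 64.4 to 109 CPM in the other WT libraries, and so differed more in replicate 2. Gpr37l1 was at 81.4 and 83.1 CPM in the libraries labelled KO replicate 2 and at 41.1 and 47.3 CPM in WT replicate 2, against 12.4 to 21.9 CPM in the other KO and 31.5 to 53.4 CPM in the other WT libraries. Its difference was 0.92 in replicate 2 and -1.23 in the others. Below the others stood Mbp, Scg5, a chaperone of secretory granules, Mgst3, Epha5, Tgfbi, Tacr3, Smyd5, Fkbp3, Sst and Ndufs5. Scg5 was at 115 and 117 CPM in the libraries labelled KO replicate 2 and at 118 and 84.8 CPM in WT replicate 2, against 234 to 371 CPM (median 306) in the other KO and 89.4 to 116 CPM (median 113) in the other WT libraries. Replicate 2 was 1.31 below the others in its log2 difference.

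The surroundings of Shank3 on chromosome 15 were examined because genes close to a targeted gene stay linked to it in breeding. Within 10 Mb lay 208 tested genes, of which 20 were called lower and 19 higher in the others (9.37% and 4.66% of all genes). Of these 39, 17 were kept in replicate 2, 15 reduced and 7 reversed. Tuba1c, an alpha-tubulin 9.53 Mb from the start of Shank3, was at 74.4 and 61.6 CPM in the libraries labelled KO replicate 2 and at 13.5 and 11.8 CPM in WT replicate 2. The other KO libraries held 66.5 to 107 CPM (median 71.8) and the other WT libraries 7.51 to 48.1 CPM (median 10.2). The genotypes did not overlap in either set, and the log2 difference was 2.45 ± 0.61 in replicate 2 and 2.42 ± 0.36 in the others (adjusted p = 0.0325). Tubulins resemble each other closely, and how their shared reads were counted is unknown. Gm15609, whose start lies within Shank3, was at 0.764 and 0.865 CPM in the libraries labelled KO replicate 2 and at 0.325 and 0.609 CPM in WT replicate 2, against 1.05 to 1.39 CPM in the other KO and 0.111 to 0.745 CPM in the other WT libraries. With no strand setting known for the counts, its reads and those of Shank3 cannot be told apart. Tspo, a mitochondrial membrane protein, was reduced, with -0.74 against -1.77.

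**Figure D5:**
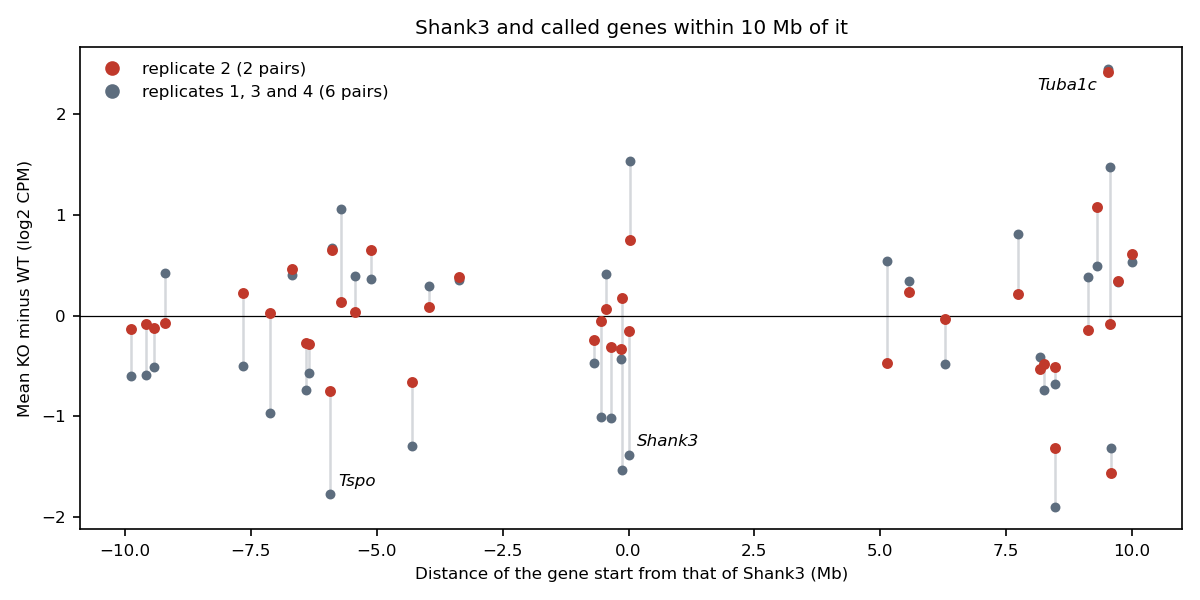
Mean KO minus WT difference in log2 CPM (vertical axis) of Shank3 and of the 39 called genes within 10 Mb of it, by distance of the gene start in Mb (horizontal axis). Red marks are replicate 2 (mean of 2 pairs), grey marks the others (mean of 6 pairs), and a line joins the values of a gene. Both marks of Tuba1c lie above 2, while those of Shank3 lie far apart.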

How the data were processed

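The authors deposited counts, whole numbers of reads per gene that were not normalized, in 2 tables of 54532 genes with 16 columns. By the submitters' processing notes they used HISAT2 2.0.5, featureCounts 1.5.0-p3 and GRCm38.p6. Whether counting used strand is unknown: not given in the sources here. Genes were restricted to the study's biotypes (33134) and filtered with filterByExpr at a minimum count of 15 in a proportion of 0.25, which left 14783. In R 4.3.3 with edgeR 4.0.16, the Veh and Li counts of each genotype and replicate number were summed to 8 sums, scaled by TMM and fitted with the replicate number as a block, genotype, and a term for KO in replicate 2 (2 residual degrees of freedom). A call needed a fold above 1.2 together with an adjusted p (Benjamini-Hochberg) under 0.05. Shares of DESeq2 calls are of all 14783 genes. DESeq2 gave an adjusted p to only 11057 of them in replicate 2 and 11917 for the difference. SE is the log2 fold change divided by the root of the F statistic. Pair differences used log2 CPM with a prior count of 2.

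Replicate numbers in the titles were read as marking the experimental batch that the methods describe. Deviations of same-numbered KO and WT libraries from their group means correlated by 0.161 to 0.557, each above 0.1, and the numbers were taken to pair the samples, although in 2 of 8 cases another number correlated better (Veh of replicate 2, 0.530 against 0.363, and Li of replicate 1, 0.449 against 0.161). Members and the 39 gene lists (25 of functions, 14 of cell types) were chosen with earlier results of these data known. The named genes are Shank3, the 4 members of each described list with the smallest p, the 10 genes per direction with the smallest p for the difference, or with the largest kept difference, 6 genes near Shank3, the sex-linked list and genes the paper names. Promoters came from RefSeq. Alternatives were RLE and no TMM scaling, other filters, biotypes and thresholds, no block, 16 separate libraries, limma-voom 3.58.1, DESeq2 1.42.0, limma on differences, a single treatment, and left-out replicates and libraries. A fit to replicates 1, 3 and 4 alone was added after seeing the data. The fits were tested on simulated data. Results for some members of the lists are not reported here.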

Additional observations from a re-analysis of the deposited data

Results flagged for a closer look

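In 180 groups of 4 libraries (Shank3, the mean level of each list and of the genes near Shank3, and the single sex-linked genes, by genotype and treatment), 11 library values lay apart from the other 3, 7 of them in replicate 2. Chance alone gives about 1 in 20 groups. Shank3 was at 159.2 CPM in KOLi replicate 2, against 85.3 to 96.3 CPM in the other KOLi libraries. Presynaptic release genes had a mean of 7.30 log2 CPM in KOVeh replicate 2 and 7.19 in KOLi replicate 2, below the others. Chemokine and NF-kappaB genes were at 3.75 in KOLi replicate 2, against 2.29 to 2.44. Nuclear genes of oxidative phosphorylation were at 7.07 in WTVeh replicate 2, against 6.81 to 6.84. The mRNAs of the mitochondrial genome were at 8.21 in KOVeh replicate 2 and 8.08 in KOLi replicate 2, above the others. Outside replicate 2, collagens were high in WTVeh replicate 4 (4.47), ribosomal proteins high in KOLi replicate 4 (7.43), and hypoxia and glycolysis genes low in KOVeh replicate 4 (6.55) and WTLi replicate 4 (6.74).

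In 6 of the 31 lists whose medians lay on 1 side of 0 in all 6 other pairs, both pairs of replicate 2 lay on the other side. The medians of the Veh and Li pair of replicate 2 were -0.30 and -0.050 for cholesterol synthesis, -0.11 and -0.031 for hypoxia and glycolysis, -0.17 and -0.12 for interneurons, 0.088 and 0.018 for endothelial cells, 0.13 and 0.055 for ependymal cells and 0.093 and 0.0095 for choroid plexus. Those of endothelial cells and choroid plexus changed sign without WTVeh replicate 2, and that of choroid plexus also without KOVeh replicate 2. The differences of these list medians were not tested.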

How the results depend on the processing

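Among the 203 genes named by rule, no called difference changed sign under any alternative. The other called genes were not checked for this. With 1 library left out, the medians in replicate 2 changed sign for oxidative phosphorylation, TGF-beta and BMP, mural cells and neural progenitors. They also did so for choroid plexus (-0.027 to 0.20), endothelial cells (-0.031 to 0.10), meningeal fibroblasts (-0.086 to 0.052), immediate-early genes (-0.0067 to 0.042) and the perineuronal net (-0.018 to 0.063). Actin and adhesion genes ranged from -0.32 to -0.060 and YAP and TEAD targets from -0.37 to -0.033. In replicates 1, 3 and 4, the 2074 calls became 9 at an adjusted p under 0.01, 0 without the replicate block, 5036 with 16 separate libraries and 4526 with limma-voom. In replicate 2, the 0 calls became 1071, 271 and, with DESeq2, 163. For the difference, the 0 calls became 1889, 676 and 104, and 6 with no filter on low counts. The share of called genes with the same sign of the fitted difference in replicate 2 (75.5%) was 79.6% without TMM, 66.7% at an adjusted p under 0.01, 67.3% with 16 libraries, 67.5% with limma-voom, 71.4% with DESeq2, 63.1% in Veh and 81.4% in Li libraries alone. The median of DNA replication in replicate 2 was -0.38 without TMM, -0.36 at 50 counts or more, -0.37 with 16 libraries, -0.36 with limma-voom, -0.36 with limma on differences, -0.31 in Veh and -0.39 in Li alone. Without TMM, GABA genes were at 0.32, channels at 0.32, hypoxia at -0.12, mural cells at 0.10 and genes near Shank3 at -0.070. At 50 counts or more, matrix enzymes were at -0.11, oligodendrocytes at -0.44 and mural cells at 0.31. In Veh alone, channels were at 0.44, TGF-beta and BMP at 0.074, cholesterol synthesis at -0.29, mitochondrial mRNAs at 0.49, mural cells at 0.30, oxidative phosphorylation at -0.23 and ribosomal proteins at -0.32. In Li alone these were 0.32 for channels, -0.093 for TGF-beta and BMP, -0.038 for hypoxia, 0.19 for mitochondrial mRNAs, -0.047 for mural cells, 0.033 for oxidative phosphorylation and -0.097 for ribosomal proteins.

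Leaving out 1 replicate or library gave 0 (without replicate 1) to 2935 calls (without KOLi replicate 3) in replicates 1, 3 and 4, 0 to 2 calls for the difference, and a same-sign share of 60.1% (without WTLi replicate 2) to 86.3% (without WTVeh replicate 2). The medians of replicate 2 ranged from -0.43 to -0.24 for DNA replication, 0.31 to 0.39 for GABA synthesis and receptors, -0.25 to 0.081 for oxidative phosphorylation, nuclear, -0.29 to -0.011 for interneurons, -0.041 to 0.30 for mural cells, -0.97 to -0.46 for mitosis, -0.31 to -0.23 for fibrillar and other interstitial collagens, -0.41 to -0.11 for basement membrane, -0.28 to -0.066 for matrix enzymes and inhibitors, 0.32 to 0.43 for voltage-gated channels, -0.096 to 0.073 for TGF-beta and BMP, -0.33 to -0.086 for ribosomal proteins, -0.091 to -0.0082 for hypoxia and glycolysis, -0.33 to 0.075 for neural progenitors and -0.27 to -0.072 for cholesterol synthesis. The causes were not tested. With 1 pair of cultures, replicate 2 has no error of its own.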

Other observations

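The following 4 of the 150 genes that DESeq2 called higher in replicate 2 were chosen after their values were seen. Prox1, a transcription factor of granule cells, was at 207 and 209 CPM in the libraries labelled KO replicate 2 and at 76.6 and 85.5 CPM in WT replicate 2, against 74.0 to 131 CPM in the other KO and 104 to 120 CPM in the other WT libraries. Calb1, a calcium-binding protein, was at 231 and 218 CPM in the libraries labelled KO replicate 2 and at 105 and 76.2 CPM in WT replicate 2, against 82.8 to 187 CPM in the other KO and 98.3 to 160 CPM in the other WT libraries. Necab1, of the same kind, was at 31.9 and 35.3 CPM in the libraries labelled KO replicate 2 and at 13.2 and 10.96 CPM in WT replicate 2, against 20.4 to 36.8 CPM in the other KO and 25.1 to 30.8 CPM in the other WT libraries. Adcy1, an adenylyl cyclase, was at 552 and 512 CPM in the libraries labelled KO replicate 2 and at 201 and 225 CPM in WT replicate 2, against 418 to 625 CPM in the other KO and 335 to 441 CPM in the other WT libraries.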
